A study of Homo sapiens with 4 samples.

Results

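The 4 HOX clusters, HOXA, HOXB, HOXC and HOXD, were followed through cohesin contact maps of neuroblastoma cells. An anchor is a stretch of the genome at which the deposited tables record contacts, and a PET (paired-end tag) is 1 sequenced ligation product that joins a pair of anchors. A pair of anchors was taken as a member when the midpoint of at least 1 of its anchors lay in one of 4 windows of the hg19 genome build. The windows were 26.9 to 27.5 Mb of chromosome 7 for HOXA, 46.55 to 46.9 Mb of chromosome 17 for HOXB, 54.25 to 54.5 Mb of chromosome 12 for HOXC and 176.7 to 177.3 Mb of chromosome 2 for HOXD. They hold 2133 of the 720049 anchor pairs listed in either table, 332 for HOXA, 727 for HOXB, 497 for HOXC and 579 for HOXD. A pair that joins 2 of the clusters counts for both. Inside the windows lie 54 of 39507 anchors, 8 in HOXA, 16 in HOXB, 14 in HOXC and 16 in HOXD, numbered here from the low-coordinate end of each window.

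The cells were of the Kelly line, an established neuroblastoma line, in a derivative resistant to TAE684, an inhibitor of the receptor tyrosine kinase ALK. Both groups were resistant cells kept in 1 µM TAE684. One group received virus with a hairpin against BORIS (shBORIS) and the control group virus with a hairpin labelled shLUC, for 24 h with 8 µg/ml polybrene and then 48 h of puromycin selection. Each group had 2 libraries of ChIA-PET for SMC1, a cohesin subunit, in which chromatin bound by the protein is precipitated and its DNA ends are ligated to each other. The deposited tables pool the libraries of a group into 1 table each, so no spread between libraries was measured, and the level of BORIS was not measured in these files. Every interval and p-value below covers counting error only and compares the 2 pools, not the conditions. PETs were amplified by PCR and no molecular identifiers are given, so that error is itself a lower limit.

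HOX genes encode homeodomain transcription factors that give cells their position along the body axis, and their order along each cluster matches the order in which they are expressed along the embryo. CTCF, a DNA-binding protein that halts cohesin as it extrudes chromatin loops, is bound at several sites between HOX genes, and such sites separate active from silent parts of a cluster. BORIS, also named CTCFL, is a paralogue of CTCF that recognises nearly the same DNA motif. The HOXA and HOXD clusters are known to lie at the border between neighbouring contact domains, so that genes at one end contact enhancers on one side and genes at the other end contact the opposite side.

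In the RefSeq gene table (build GRCh38.p14, used for names and order only) the clusters hold 39 HOX genes, 11 in HOXA, 10 in HOXB, 9 in HOXC and 9 in HOXD. HOXA lies between SKAP2 at the low-coordinate end and HIBADH at the high-coordinate end, with EVX1 after HOXA13. From low to high coordinate HOXB runs from HOXB1 to HOXB13, between SKAP1 and TTLL6. HOXC runs in the opposite order, from HOXC13 to HOXC4, between CALCOCO1 and SMUG1. HOXD runs from HOXD13 to HOXD1, with EVX2 and LNPK before it and MTX2 after it. An hg19 annotation was not used here, so no anchor is assigned to a single gene or placed inside or past the run of HOX genes. An anchor named after a cluster is any anchor in that cluster's window. Between the HOX genes sit 8 microRNA genes, MIR196B in HOXA, MIR10A, MIR196A1 and MIR3185 in HOXB, MIR196A2 and MIR615 in HOXC, and MIR10B and MIR7704 in HOXD. The mature miR-196 sequences are printed because HOXA, HOXB and HOXC, which lie on different chromosomes, hold members of this microRNA family. The miR-196a sequence comes from both MIR196A1 of HOXB and MIR196A2 of HOXC, and miR-196b of HOXA has a different sequence outside the seed. Capitals mark the seed (bases 2 to 8), which is the same in all 3 clusters. The miR-10a sequence of HOXB is given beside them as a different seed. Sequences are from RefSeq, GRCh38.p14, 5′ to 3′, and the files hold no measurement of these RNAs.
hsa-miR-196a-5p: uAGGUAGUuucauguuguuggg
hsa-miR-196b-5p: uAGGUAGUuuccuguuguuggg
hsa-miR-10a-5p: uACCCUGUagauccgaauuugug

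The shLUC table held 434975 PETs, of which 146140 joined anchors on the same chromosome, and the shBORIS table held 449979, of which 163041 did. A scaled ratio below is the shBORIS count over the shLUC count after each is divided by its table's total of PETs of the same kind (same chromosome or different chromosomes).

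All 4 clusters made cohesin contacts in both tables, and the 95% interval of each cluster's scaled ratio between shBORIS and shLUC included 1. Within its window HOXA gave 4 PETs in shLUC and 11 in shBORIS, HOXB 31 and 38, HOXC 33 and 45, and HOXD 26 and 32. The scaled ratio of these contacts was 2.46 for HOXA (95% Clopper-Pearson interval 0.730 to 10.6), 1.10 for HOXB (0.666 to 1.83), 1.22 for HOXC (0.763 to 1.98) and 1.10 for HOXD (0.637 to 1.93). From the window to other anchors of the same chromosome HOXA gave 36 and 33 PETs, HOXB 112 and 142, HOXC 82 and 116, and HOXD 52 and 47. Those ratios were 0.822 (0.496 to 1.36), 1.14 (0.881 to 1.47), 1.27 (0.947 to 1.70) and 0.810 (0.534 to 1.23). To other chromosomes HOXA gave 130 and 140 PETs, HOXB 271 and 316, HOXC 175 and 191, and HOXD 248 and 236, with ratios from 0.958 for HOXD to 1.17 for HOXB. Scaled in this way, each of these intervals includes 1. With only pairs of at least 3 PETs in either table, the ratio crossed to the other side of 1 for contacts leaving HOXA (3.59) and HOXB (0.820) and for those within HOXC (0.896), also with intervals that include 1. Without pairs under 20 kb, the ratio within the window fell below 1 for HOXB (0.866, 0.428 to 1.74), HOXC (0.997, 0.403 to 2.49) and HOXD (0.699, 0.312 to 1.53). Scaled to all PETs of each table instead of those of the same kind, the ratio for contacts leaving HOXC was 1.37 with an interval of 1.02 to 1.84, which excludes 1. For scale, the same-chromosome ratio of 2042 tiles of 500 kb across the genome ran from 0.632 to 1.40 between its 5th and 95th percentiles. The HOXA contacts within the window rest on 15 PETs in all, and a change in either direction of the size seen was not detectable at this depth.

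**Figure D1:**
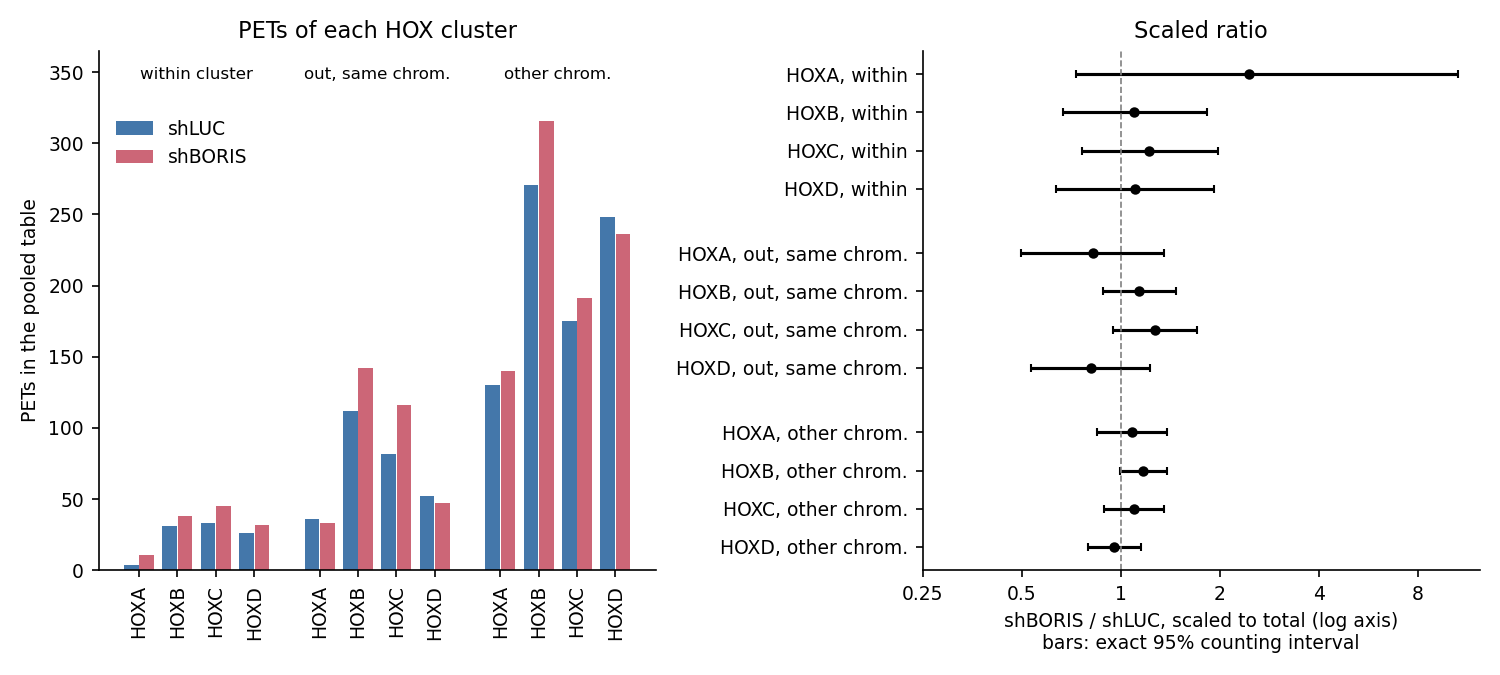
PETs of each HOX cluster in the shLUC and shBORIS tables, split by contacts within the window, to the rest of the chromosome and to other chromosomes, with the scaled ratio and its exact 95% interval for each. All intervals cover 1, and the HOXA interval within the window is the widest (0.730 to 10.6).

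The clusters differed in how much of their signal stayed on the chromosome. HOXC stood highest, with same-chromosome anchors joined by 39.7% of its shLUC and 45.7% of its shBORIS PETs, and HOXB followed with 34.5% and 36.3%. HOXA held 23.5% and 23.9%, and HOXD 23.9% and 25.1%. Across tiles of 500 kb the median was 23.3% in shLUC and 24.6% in shBORIS, and the 95th percentile 34.5% and 37.2%. HOXC was therefore above the 95th percentile of tiles in both tables, HOXB was near it, and HOXA and HOXD were near the median. Per 100 kb of window HOXC held 5.60 anchors, HOXB 4.57, HOXD 2.67 and HOXA 1.33. This density depends on the chosen window widths, 250 kb for HOXC, 350 kb for HOXB and 600 kb for HOXD and HOXA. Anchors 2 to 8 of HOXA lay between 283 and 375 kb from the window start. Anchors 2 to 14 of HOXD lay between 245 and 353 kb from it. The density is therefore not a ranking of the clusters themselves. The median anchor width was between 1270.5 and 1354 bp in the 4 clusters, and 1172 bp across the genome. Copy number of the 4 regions was not measured in these files.

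Most member pairs on the same chromosome were seen once. Of 436 such pairs, 317 held 1 PET over both tables, 55 held 2 and 64 held 3 or more, and 80 appeared in both tables. Genome-wide shares were not computed for these counts, so they are not read as a HOX trait. Pairs with 10 or more PETs numbered 10, of which 5 touched HOXB and 5 HOXC. HOXA and HOXD had none, and their strongest pairs held 6 and 8 PETs over both tables.

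In both tables, 3 of the clusters reached out to the low side of the window from the anchors at their low-coordinate end, summed together. Their anchors at the other end, summed together, reached out to the high side. Counted here are PETs to anchors outside the window and within 2 Mb on the chromosome. In HOXA, anchors 1 to 5 sent 13 PETs to the low side and 2 to the high side in shLUC, and 13 and 0 in shBORIS. HOXA anchors 6 to 8 sent 0 PETs to the low side and 15 to the high side in shLUC, and 0 and 11 in shBORIS. By gene order, the low side is the SKAP2 side and the high side the EVX1 side, next to HOXA13. In HOXB, anchors 1 to 7 sent 25 PETs to the low side and 2 to the high side in shLUC, and 30 and 3 in shBORIS. HOXB anchors 8 to 16 sent 1 to the low side and 73 to the high side in shLUC, and 0 and 76 in shBORIS. In HOXD, anchors 1 to 5 sent 12 and 1 in shLUC and 12 and 1 in shBORIS. HOXD anchors 6 to 16 sent 0 to the low side and 30 to the high side in shLUC, and 0 and 21 in shBORIS. HOXC had no such switch: anchors 2 to 14 sent 0 PETs to the low side and 62 to the high side in shLUC, and 4 and 87 in shBORIS. The HOXC high side is the side of HOXC4 and SMUG1. A few anchors gave most of the low-side PETs. Over both tables, HOXA anchor 4 gave 14, and HOXA anchors 1, 2, 3 and 5 gave 3 each. HOXD anchors 2 and 3 gave 8 and 12, anchor 5 gave 3, anchor 4 gave 1 and anchor 1 gave 0. HOXB anchors 2, 3 and 7 gave 9, 18 and 19, and HOXB anchors 1 and 6 gave 1 each.

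The place of each switch was read from these same counts, so they are a description. Of the anchors outside each window and within 2 Mb of it, those on the low side made up 47.7% for HOXA, 38.1% for HOXB, 52.9% for HOXC and 50.8% for HOXD. For comparison, 43.3% of the HOXA PETs that left the window ran to the low side in shLUC and 54.2% in shBORIS. The share was 25.7% and 27.5% for HOXB, 1.59% and 4.40% for HOXC, and 27.9% and 35.3% for HOXD. An anchor near an edge of its window is closer to partners on that side. The switch lay inside each window, 328 kb from the start of 600 kb in HOXA, 155 kb from the start of 350 kb in HOXB and 269 kb from the start of 600 kb in HOXD.

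**Figure D2:**
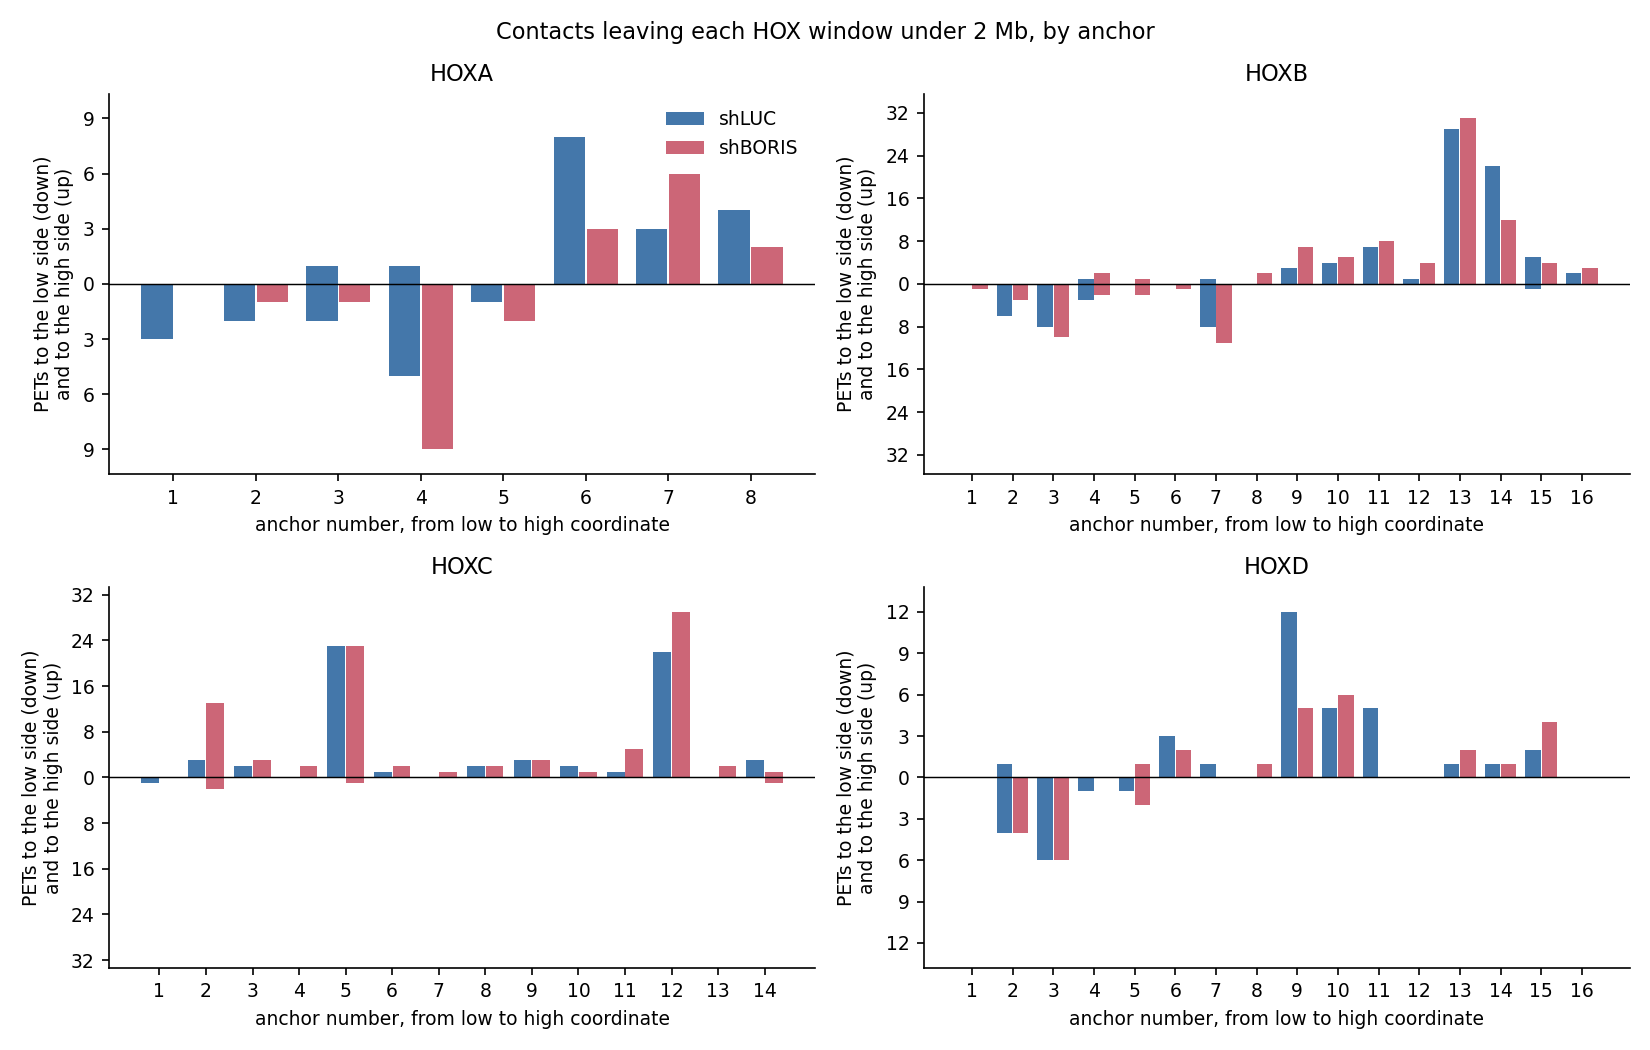
PETs of each HOX anchor to partners outside the window within 2 Mb, drawn as counts to the low-coordinate and the high-coordinate side, for shLUC and shBORIS. HOXA, HOXB and HOXD pass from the low to the high side after anchors 5, 7 and 5, and HOXC anchors 2 to 14 sent 62 PETs in shLUC and 87 in shBORIS to the high side.

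Of the anchors with more PETs to one side than the other in each table, 36 of 36 led to the same side in shLUC and shBORIS. This count leaves out partners inside the window, and no genome-wide share was computed for it, so it cannot be judged against a background. When contacts inside the window were counted as well, 34 of 42 did (81.0%), against 80.6% of 27272 anchors across the genome. That share is near the background.

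In HOXB and HOXD the switch fell within stretches that few PETs crossed. HOXA was less clear, and HOXC had a sparse stretch without a switch. For each gap between neighbouring anchors, the PETs of pairs that span under 500 kb and bridge the gap were set over the number expected from the span of each possible pair and from the interchromosomal PETs of its anchors. Across 20659 gaps of the genome with at least 10 expected PETs over both tables, this observed-over-expected ratio had a median of 0.807 and a 5th percentile of 0.172. The sparsest gap of each cluster was picked by that ratio over both tables and is given as a description. It was the lowest of 4 such gaps in HOXA, 15 in HOXB, 13 in HOXC and 14 in HOXD. The genome's shares and percentiles are of single gaps that were not picked, so they overstate how unusual a picked gap is.

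The sparsest HOXB gap, between anchors 7 and 8 (chr17:46696722-46713491), was crossed by 2 PETs where 27.3 were expected in shLUC and by 3 where 30.3 were expected in shBORIS. Its ratio was 0.0731 and 0.0989, and 1.19% of the genome's gaps were as low over both tables. It is the gap at which the HOXB anchors changed side. In HOXD the sparsest gap, between anchors 7 and 8 (chr2:176984275-176986616), was crossed by 2 PETs against 21.3 expected in shLUC and by 3 against 24.5 in shBORIS, with 1.90% of gaps as low. The HOXD gaps 4 to 8 formed 1 sparse stretch, with ratios from 0.109 to 0.137 over both tables, and the change of side after anchor 5 fell within it. In HOXA the sparsest gap, between anchors 5 and 6 (chr7:27220050-27235283), was crossed by 1 PET against 7.59 expected in shLUC and by 3 against 8.73 in shBORIS, and 10.2% of gaps were as low. The neighbouring HOXA gap 4 was almost as low, at 0.246 against 0.245. In HOXC, which had no switch, the sparsest gap lay between anchors 1 and 2 (chr12:54355794-54378192), centred 117 kb into the 250 kb window. It was crossed by 0 PETs against 13.4 expected in shLUC and by 5 against 14.9 in shBORIS, and 5.29% of gaps were as low. From HOXC anchor 5 to anchor 14 the ratio over both tables was 1.13 at its lowest. For pairs under 500 kb, HOXB and HOXD were below the 5th percentile of the genome's gaps, and HOXC (0.177) and HOXA (0.245) were above it. With pairs under 1 Mb the sparsest HOXD gap was gap 4, and its ratio rose to 0.218 in shLUC and 0.229 in shBORIS, while the HOXA ratio was 0.308 in shLUC and 0.271 in shBORIS. The crossing counts and the side counts share PETs and are not separate evidence.

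**Figure D3:**
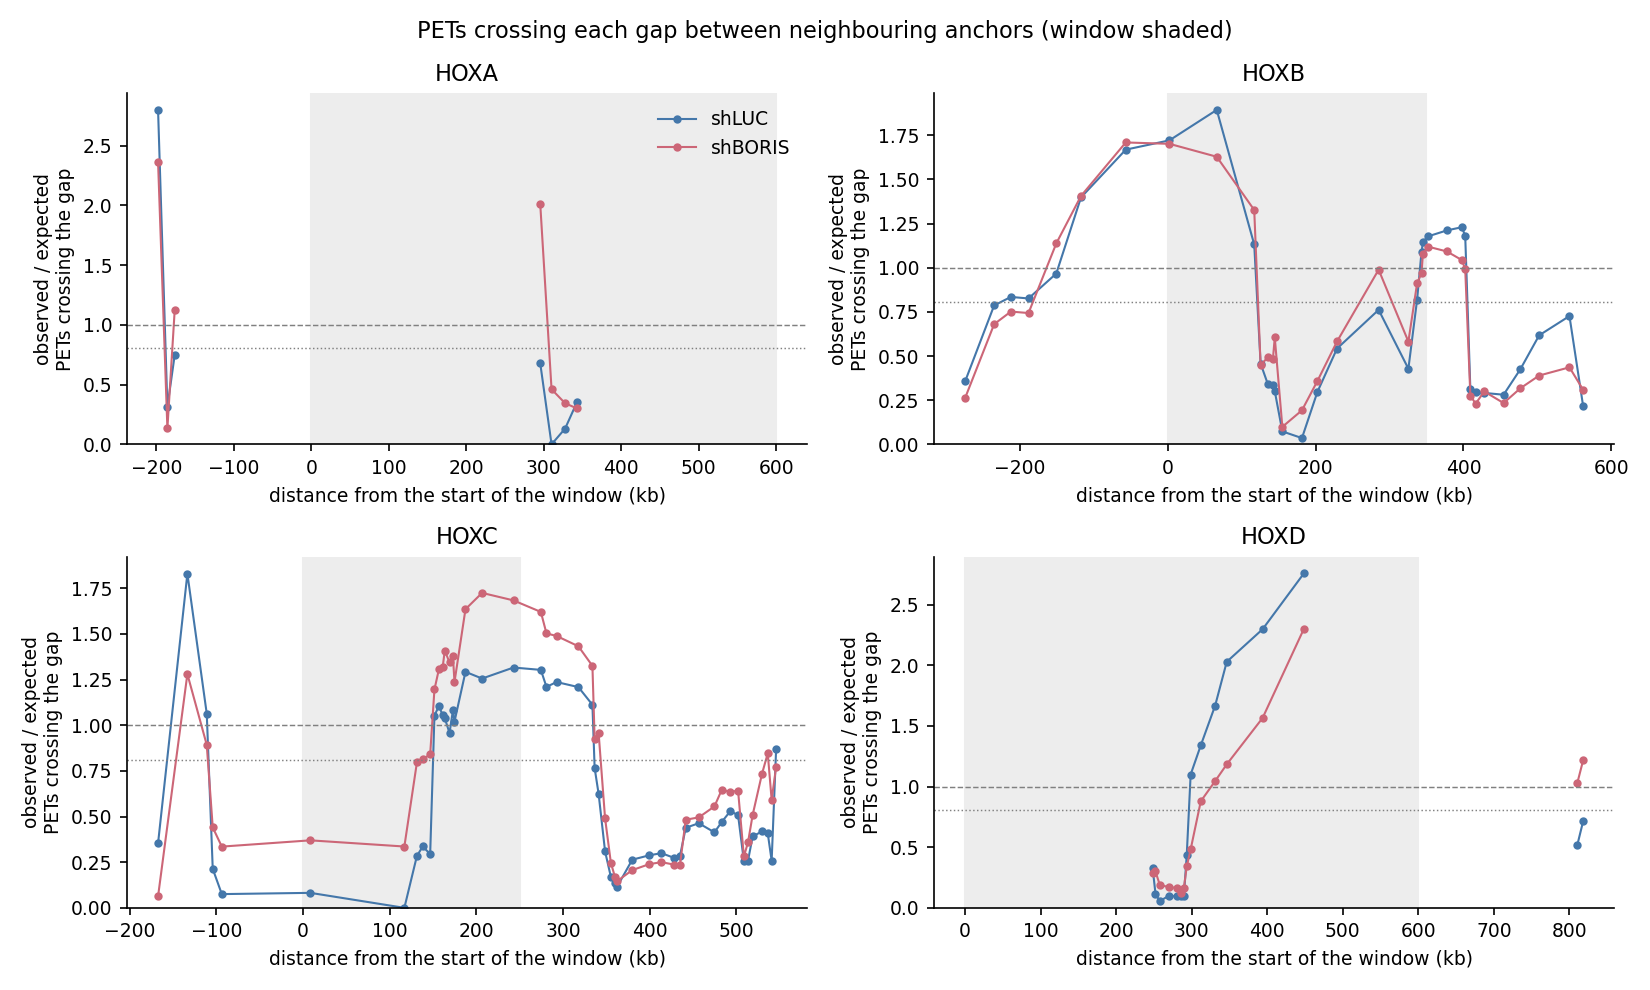
Observed over expected PETs that cross each gap between neighbouring anchors, by distance from the window start, for shLUC and shBORIS, on a linear axis from 0. The dashed line is 1, the dotted line is the genome's median of 0.807, and the lines break where under 10 PETs were expected. HOXB and HOXD dip to 0.0867 and 0.109 over both tables. Within its window HOXC is at 1.13 or above over both tables from anchor 5 onwards. Past the high end of the window the HOXC ratio over both tables falls to 0.132, at 362 kb from the window start.

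Anchors inside the windows were compared on either side of the sparsest gaps, whose low crossing counts follow from how they were picked. Between HOXB anchors on opposite sides of the gap there were 2 PETs against 15.3 expected in shLUC and 1 against 16.9 in shBORIS, while between anchors 8 to 16 there were 25 and 25 against 32.2 and 38.2. Between HOXB anchors 1 to 7 there were 4 PETs against 8.45 in shLUC and 12 against 10.0 in shBORIS. Between HOXD anchors on opposite sides there were 2 PETs against 20.2 in shLUC and 3 against 23.3 in shBORIS, while between anchors 8 to 16 there were 21 and 17 against 12.5 and 14.7. HOXD anchors 1 to 7, which do not cross the gap, also had few PETs among themselves in shLUC, 3 in all (ratio 0.272, 0.0560 to 0.794), and had 12 against 13.5 in shBORIS. Over all anchors of a window, the observed-over-expected ratio was 0.555 in shLUC and 0.583 in shBORIS for HOXB, 0.595 and 0.622 for HOXD, 0.316 and 0.724 for HOXA, and 1.01 and 1.14 for HOXC. HOXC fell to 0.543 and 0.621 where the expectation used span alone.

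**Figure D4:**
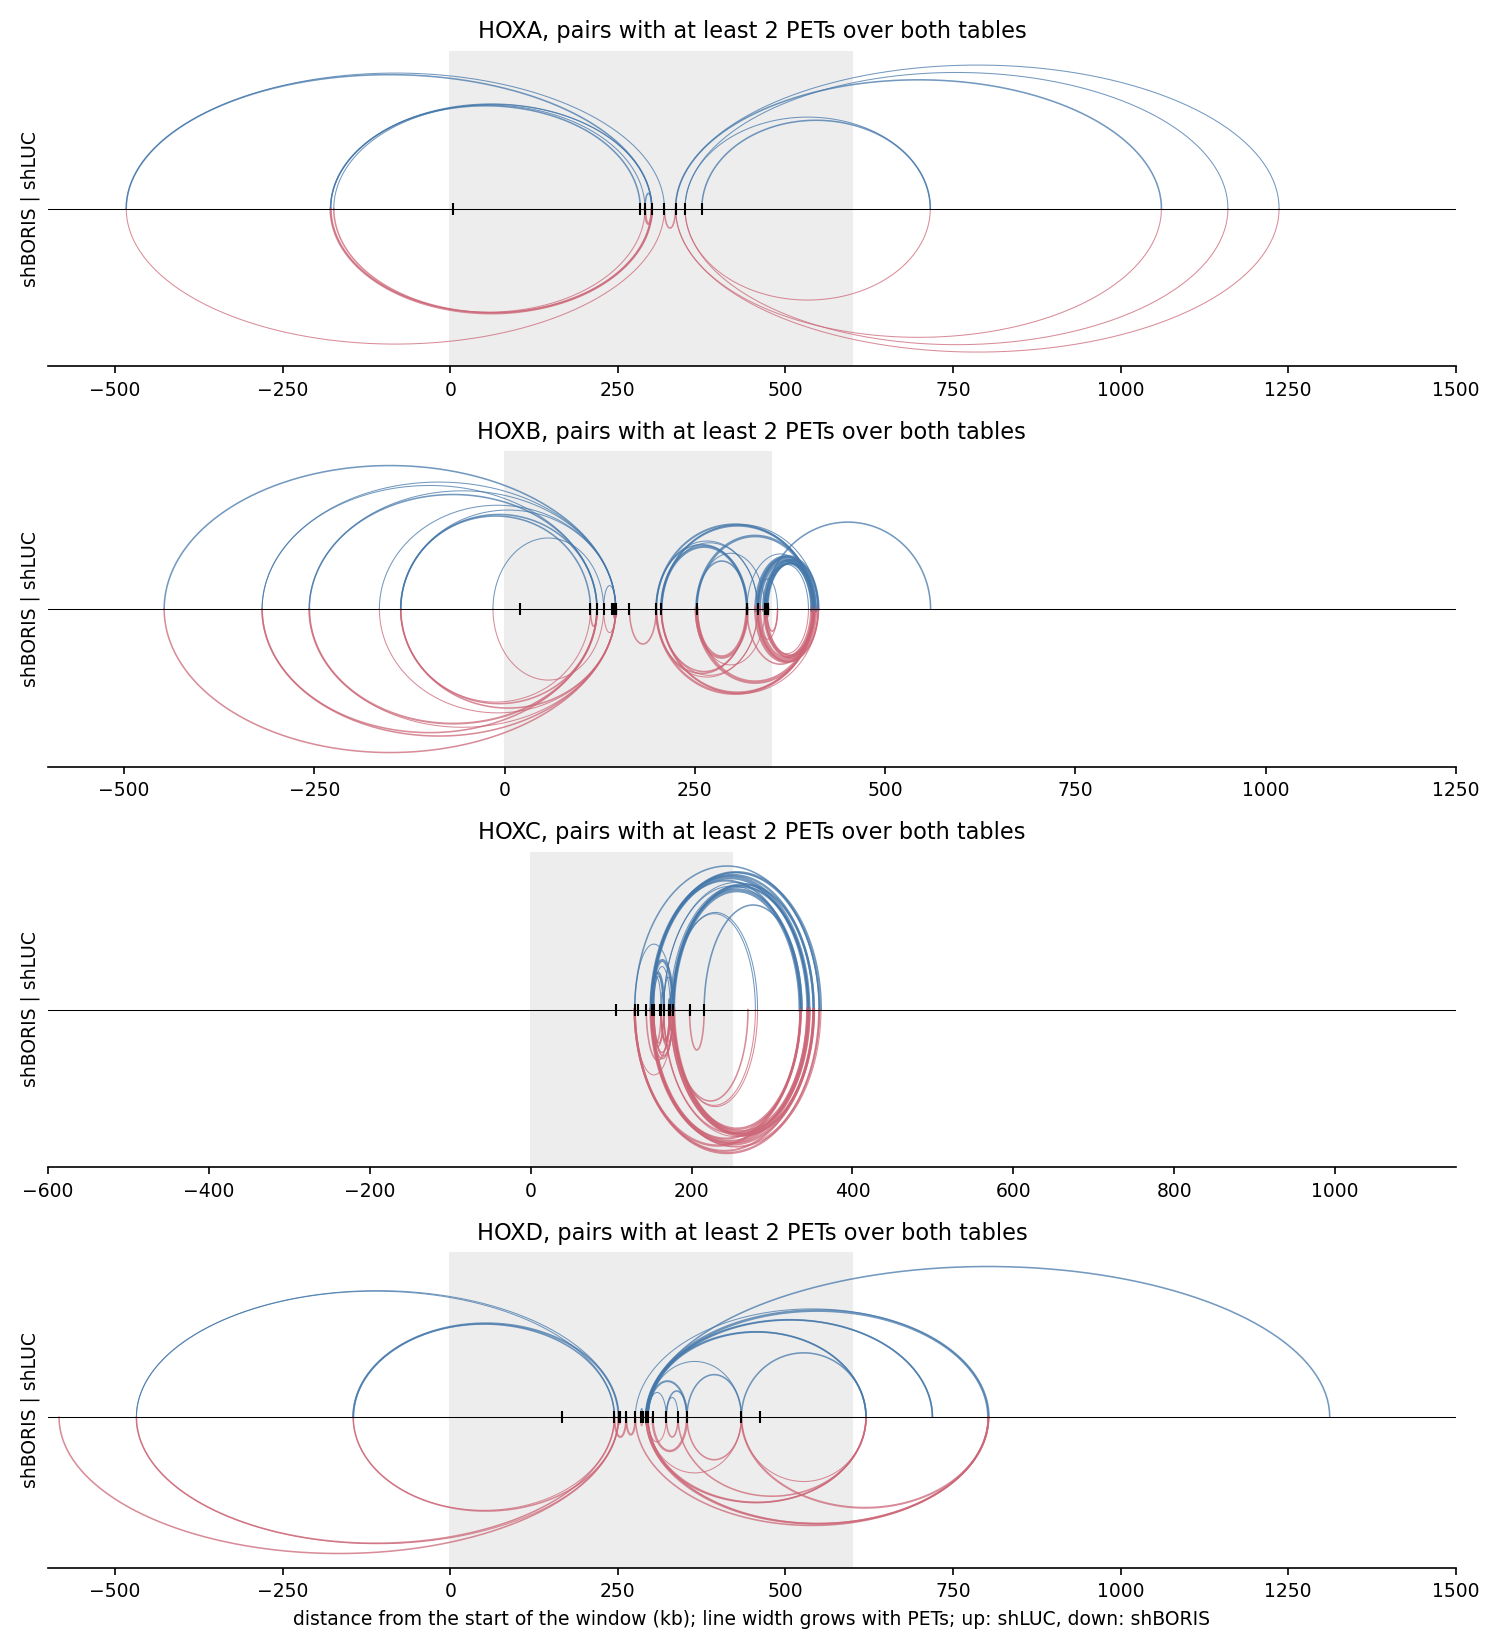
Arcs join the anchors of each member pair with at least 2 PETs over both tables, by distance in kb from the window start, from 600 kb before the shaded window to 900 kb beyond it, with shLUC above the line, shBORIS below it and line width growing with PETs. In HOXB, HOXC and HOXD the arcs that leave the window to the high side converge on a few partners, among them the HOXB partner that shared 55 PETs with the cluster in shLUC and 52 in shBORIS.

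HOXB contacts on the high side converged on 1 partner. The anchor at chr17:46954896-46957289 lies 56.1 kb beyond the window and was paired with 10 of the 16 HOXB anchors. It shared 55 PETs with them in shLUC and 52 in shBORIS, which was 80.9% and 75.4% of its PETs on the chromosome. The strongest pair of all 4 clusters joined it to HOXB anchor 13 (chr17:46881694-46883349) over 73.6 kb, with 22 PETs in shLUC and 24 in shBORIS. HOXB anchor 14 (chr17:46891332-46892698) shared 16 PETs with it in shLUC and 8 in shBORIS, a scaled ratio of 0.448 (0.166 to 1.11), and anchor 11 shared 5 and 8. HOXB anchors 13 and 14 lie near the high edge, 333 and 342 kb from the start of the 350 kb window. They sent 29 and 22 PETs to the high side in shLUC and 31 and 12 in shBORIS. Whether they lie among the HOX genes or past HOXB13 was not determined. With the window narrowed by 50 kb, PETs leaving it on the chromosome fell from 112 to 61 in shLUC and from 142 to 90 in shBORIS. Inside HOXB the strongest pair joined the neighbouring anchors 15 and 16, 1.29 kb apart, with 5 and 7 PETs. HOXB anchors 11 and 12, 66.4 kb apart, shared 2 PETs in shLUC and 8 in shBORIS, whereas anchors 10 and 12 shared 5 and 2. HOXB anchors 6 and 7, 1.90 kb apart, shared 0 PETs in shLUC and 7 in shBORIS, below the 10 needed for a test. On the low side HOXB contacts were spread over more partners, and the strongest of these, chr17:46412704-46414203, shared 5 PETs with 3 HOXB anchors in each table. The farthest called HOXB interaction ran 378 kb to the low side, from anchor 3 to chr17:46292494-46294016, with 2 and 3 PETs.

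HOXC sent its contacts to a row of partners on the SMUG1 side. The anchor at chr12:54594372-54596020, 95.2 kb beyond the window, was paired with 8 of 14 HOXC anchors and shared 17 PETs with them in shLUC and 28 in shBORIS. The anchor at chr12:54584734-54586178 was paired with 10 HOXC anchors and shared 16 and 18 PETs, and that at chr12:54601062-54602450 with 7, sharing 10 and 17. HOX contacts made up 60.7% and 65.1% of the PETs of the first partner on the chromosome, and 53.3% and 60.0% of those of the second. Most of these PETs came from HOXC anchors 5 (chr12:54399179-54401168) and 12 (chr12:54425666-54428247), which sent 23 and 22 PETs to the high side in shLUC and 23 and 29 in shBORIS. Anchor 5 shared 10 PETs with the partner at chr12:54594372-54596020 in each table. Anchor 12 shared 4 PETs with that partner in shLUC and 12 in shBORIS (ratio 2.69, 0.815 to 11.4), and 10 and 5 with the partner at chr12:54584734-54586178 (ratio 0.448, 0.120 to 1.44). Both intervals include 1. Inside HOXC, anchors 10 and 11, 1.12 kb apart, shared 6 and 7 PETs, and anchors 5 and 12, 26.8 kb apart, 6 and 2.

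HOXD reached farther than the other clusters among called interactions. HOXD anchor 9 (chr2:176991298-176993084) shared 5 PETs in shLUC and 3 in shBORIS with chr2:177501830-177503769, over 511 kb, the longest called interaction of the 4 clusters. That partner was paired with 6 HOXD anchors, sharing 8 and 10 PETs with them, and lies on the side of HOXD1 and MTX2. The partner at chr2:177319113-177321292 was paired with 7 HOXD anchors and shared 7 and 9 PETs. On the opposite side, that of EVX2 and LNPK, anchor 3 shared 3 PETs in shLUC and 2 in shBORIS with chr2:176554728-176555728, 396 kb away. Inside HOXD the strongest pair joined anchors 9 and 10, 2.66 kb apart, with 3 and 4 PETs. HOXD anchors 11 and 14 shared 0 and 4 PETs, anchors 2 and 5 shared 0 and 3, and anchors 3 and 4 shared 0 and 3, all too few to test.

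HOXA, with 8 anchors, gave the fewest contacts in all. Per anchor its PETs within the window were also the fewest, 0.5 in shLUC and 1.375 in shBORIS. Its PETs per anchor to the rest of the chromosome, 4.5 and 4.125, were above those of HOXD, 3.25 and 2.94. The strongest HOXA pair joined anchors 3 (chr7:27189835-27191164) and 4 (chr7:27199919-27201417), 10.2 kb apart, with 2 PETs in shLUC and 4 in shBORIS. HOXA anchor 4 shared 1 PET in shLUC and 4 in shBORIS with chr7:26720751-26722185, 479 kb away on the SKAP2 side. That partner and its neighbour at chr7:26725450-26726977 together shared PETs with HOXA anchors in both tables, the first 4 and 5 and the second 3 and 3. On the opposite side, chr7:27615475-27616766 shared 4 PETs with 3 HOXA anchors in shLUC and 1 in shBORIS.

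A called interaction is a same-chromosome pair with at least 3 PETs and a deposited Bayes probability of at least 0.9. The HOX clusters held 24 called interactions in shLUC and 31 in shBORIS, of which 16 were called in both. By cluster there were 0 and 2 in HOXA, 10 and 10 in HOXB, 10 and 12 in HOXC, and 4 and 7 in HOXD. Across the genome 12.9% of listed same-chromosome pairs were called in shLUC and 14.1% in shBORIS. The matching HOX share was not computed for each table, so the HOX counts are not ranked against these. The 16 shared interactions were 66.7% of the HOX calls in shLUC and 51.6% of those in shBORIS, beside 56.0% and 48.0% for all called interactions. Of the 8 called in shLUC alone, 7 (87.5%) had at least 1 PET in shBORIS, beside 70.6% across the genome. Of the 15 called in shBORIS alone, 6 (40.0%) had at least 1 PET in shLUC, beside 67.8% across the genome. HOXB and HOXC shared 7 each, and HOXD 2.

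No HOX pair passed the test between tables. Pairs with at least 10 PETs over both tables were tested with Fisher's exact test (two-sided, Benjamini-Hochberg adjusted over all 3951 such pairs of the genome), which called 0.0506% of them. Of the 10 HOX pairs tested, 5 of HOXB and 5 of HOXC, 0 passed an adjusted p of 0.05, and 0 had an unadjusted p below 0.05. The lowest adjusted p in this exact test was 0.825, for HOXB anchor 14 and its partner at chr17:46954896-46957289. HOXA and HOXD had no pair with enough PETs to be tested.

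Summed over each anchor, 36 HOX anchors could be tested for same-chromosome PETs and 0 passed, beside 0.0204% of 19623 anchors across the genome. By Fisher's exact test 3 (8.33%) had an unadjusted p below 0.05, beside 6.43% of anchors across the genome. HOXC anchor 2 had a scaled ratio of 2.99 (exact p = 0.0170, adjusted 0.611), HOXC anchor 6 of 3.36 (exact p = 0.0226, adjusted 0.652) and HOXB anchor 14 of 0.495 (exact p = 0.0246, adjusted 0.652). For interchromosomal PETs 49 HOX anchors were tested and 0 passed, beside 0.0140% of 35637, and 2 (4.08%) had an unadjusted p below 0.05, beside 5.56% across the genome. A p above the threshold does not show that the pools are alike, and the intervals of single anchors and pairs are wide.

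Among HOX gaps with 20 or more PETs, the highest scaled ratios were at HOXC gaps 2 to 4. These gaps lie 131 to 147 kb from the start of the 250 kb window. HOXC gap 2, after anchor 2, was crossed by 6 PETs in shLUC and 19 in shBORIS, gap 3 by 8 and 22, and gap 4, before anchor 5, by 8 and 26. The scaled ratio of gap 4 was 2.91 (1.28 to 7.44), and that of 16213 gaps of the genome with at least 20 PETs ran from 0.576 to 1.82 between the 5th and 95th percentiles. Neighbouring gaps are crossed by the same PETs, and HOXC anchor 2 alone went from 3 PETs to the high side in shLUC to 13 in shBORIS. HOXB gap 6, with 8 and 18 PETs, also lay above that range (2.02), and HOXD gap 10, with 18 and 9, lay below it (0.448), both with intervals that include 1. These gaps were singled out after their values were seen, and no test of them was made. Past anchor 5 the HOXC ratios ran from 1.16 to 1.43, with intervals that include 1.

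Contacts beyond 2 Mb on the same chromosome were scattered. HOXA had 15 such pairs, HOXB 42, HOXC 43 and HOXD 22, with no more than 2 PETs each, and 0 were called. The called share of all pairs beyond 2 Mb was not computed, so the lack of calls is not read as a HOX trait. HOXB gave 11 such PETs in shLUC and 33 in shBORIS, a scaled ratio of 2.69 (1.33 to 5.90), with HOXC at 19 and 25 and an interval of 0.624 to 2.27. The HOXB ratio was singled out after the values were seen, as the farthest from 1 of the 4, and was not tested. All same-chromosome PETs beyond 2 Mb numbered 18876 in shLUC and 18662 in shBORIS.

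Contacts of the clusters with other chromosomes were nearly all single PETs. Of 1697 HOX pairs between chromosomes, 8 (0.471%) held 2 PETs over both tables, 5 of HOXB, 2 of HOXC and 1 of HOXD, and 0 held more. Across the genome 0.515% of such pairs held 2 or more PETs and 0.0115% held 3 or more. Only the pair of HOXB anchor 14 with chr1:895567-896511 had a PET in each table among the 8. Between clusters there was 1 PET from HOXB to HOXC in shLUC and 1 from HOXB to HOXD in shBORIS, where the clusters' interchromosomal PETs gave 0.430 and 0.495 expected over the 6 cluster pairs.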

How the data were processed

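SMC1 ChIA-PET was measured in 2 libraries of shLUC and 2 of shBORIS Kelly cells. Per the labels, the authors deposited 1 table per group, so both libraries are pooled and depth per library is unknown. The deposited values are raw PET counts per anchor pair on hg19. Per the file headers, the authors also gave each pair a Bayes probability, a fraction from 0 to 1 used for calls, and a hypergeometric p-value, which was not used. The shBORIS table, without a header, was read in the same column order. Cutadapt 1.8 and Bowtie are named in the submitters' processing notes; the caller is not given in the sources used here. Starts are printed 1-based.

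From the counts, Fisher's exact tests with Benjamini-Hochberg adjustment over the whole tables, Clopper-Pearson intervals and scaled ratios were computed with Python 3.11.15 and SciPy 1.17.1, and checked on simulated data. The observed-over-expected ratios were added after seeing the data. Members and lists were chosen with earlier results of these data known. Named for each cluster were the strongest pairs within and out of the window (up to 5 of each), the anchors with most contacts (up to 3), the farthest called interaction and the 2 pairs with the smallest p. Leading partners outside the windows were named by their summed PETs. Alternatives changed the PET minimum, the scaling, the span and the windows.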

Additional observations from a re-analysis of the deposited data

How the results depend on the processing

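Of 166 values recomputed under alternative settings for 51 results, 138 stayed within their interval or within 1.5 times of the count reported and 28 did not. With only pairs of at least 3 PETs in either table, the scaled ratio of contacts leaving the window became 3.59 for HOXA and 0.820 for HOXB, each across 1 from the value over all pairs, and that within HOXD 2.54. With windows narrowed by 50 kb the ratio within HOXB was 2.09, on 6 PETs in shLUC and 14 in shBORIS. HOXB contacts leaving the narrowed window on the chromosome numbered 61 and 90. A minimum of 5 PETs left 12 and 12 called interactions in shLUC and shBORIS (0 in HOXA in shBORIS, 6 and 6 in HOXB, 5 and 6 in HOXC, 1 and 0 in HOXD), and a minimum of 2 gave 4 and 4 in HOXA and 17 in HOXB in shBORIS. When a call needed only 1 PET in the second table to be shared, 29 interactions were shared, 1 was in shLUC alone and 9 in shBORIS alone. With at least 5 PETs in one table as well, 0 were in shLUC alone and 1 in shBORIS alone. With pairs of at least 2 PETs the low-side share was 17.3% for HOXB in shLUC and 0% for HOXC in both tables (0 of 49 and 0 of 65 PETs, upper limits of the exact interval 7.25% and 5.52%). For pairs under 200 kb the sparsest HOXC gap was gap 3, with a crossing ratio of 0 in shBORIS where only 1.09 PETs were expected (interval 0 to 3.38). The crossing ratio was 0 at the HOXD gap in shLUC without pairs under 20 kb. With the expectation from span alone the ratio within HOXC was 0.543 in shLUC and 0.621 in shBORIS. The cause of these shifts was not tested. Under every setting of the pair and anchor tests, a negative binomial dispersion of 0.1 among them, 0 HOX pairs and 0 HOX anchors passed.

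No paired analysis was possible because each deposited table pools the libraries of its group, and for the same reason no library was left out in turn. With 64 same-chromosome pairs of at least 3 PETs, depth limits HOXA and HOXD most.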
